A study of Drosophila melanogaster with 12 samples.

Results

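Oxidative phosphorylation subunit genes were defined as the nuclear, protein-coding genes of the Ensembl annotation of Drosophila melanogaster whose names begin with ND-, COX followed by a digit from 4 to 8, UQCR, ATPsyn, or Sdh followed by a letter from A to D. The rule found 87 of 13968 protein-coding genes. Of these, 63 were ordinary subunit genes and 24 were duplicates, whose names carry an added L (COX5BL beside COX5B). The samples were chromatin immunoprecipitations of RNA polymerase II (Pol II) from Kc167 cells, a female line of embryonic origin, with the antibody 8WG16. Before fixation the cells were transfected either without any RNA (mock), with 100 pmol of siRNA directed to AGO2 (siAGO2), or with 2 μg of long double-stranded RNA against LaminB (dsLaminB), and were collected 3 days later. Each treatment had 2 libraries, and the peak list of each had been called separately against its input. As mock lacked RNA altogether and the RNA differed in kind between the knockdowns, depletion and the RNA itself cannot be told apart.

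Oxidative phosphorylation is carried out by 5 complexes of the inner mitochondrial membrane. Complex I (NADH dehydrogenase, the ND genes) and complex II (succinate dehydrogenase, the Sdh genes) feed electrons into the chain. Complex III (the UQCR genes) passes them to cytochrome c, complex IV (cytochrome c oxidase, the COX genes) passes them to oxygen, and complex V (ATP synthase, the ATPsyn genes) uses the resulting proton gradient to make ATP. Most subunits are encoded in the nucleus and are needed in nearly every cell. Many duplicates of such genes in Drosophila are expressed mainly in the testis. The antibody 8WG16 recognises the tail of the largest Pol II subunit when it is not phosphorylated, a form that gathers at promoters. Roles of single subunits are given here as they are known for the mammalian complexes.

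The lists held 5965 and 5601 peaks in mock, 4089 and 5381 after siAGO2, and 2531 and 4124 after dsLaminB (replicate 1 first, here and in all series of values). Read numbers are not known from the lists, and the labels do not say whether the libraries came from separate cultures, so that a test measures only the spread between these libraries, which may be technical. In such bulk samples, fewer cells with Pol II at a gene and less Pol II per cell cannot be told apart. Of 12 hemocyte markers, 9 and 9 had a peak at a transcription start site (TSS) in mock, 9 and 8 after siAGO2, and 7 and 8 after dsLaminB, while NimC1, Sr-CI and PPO1 had none in any library. Of 12 testis markers, mia alone had a TSS peak, in mock and in replicate 2 of siAGO2. Sxl, listed as the female marker, had one in all 6 libraries. Of the 3 listed male markers, the RNAs roX1 and roX2 had one in none. The third, msl-2, had one in 5 libraries, in a peak shared with a subunit gene (ND-PDSW, below).

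Nearly every ordinary subunit gene carried a Pol II peak at its TSS in mock cells, and almost no duplicate did. A gene was given a TSS peak when a peak lay within 250 bp of an annotated TSS. In mock, 61 and 61 of the 63 ordinary subunit genes had one, against 34 and 55 after siAGO2 and 13 and 39 after dsLaminB. Of the 24 duplicates, 2 and 1 had one in mock, 0 and 0 after siAGO2, and 1 and 0 after dsLaminB. Over all 87 genes the counts were 63 and 62 in mock (62.5 ± 0.707, SD, n = 2), 34 and 55 after siAGO2 (44.5 ± 14.8) and 14 and 39 after dsLaminB (26.5 ± 17.7). Both siAGO2 counts and both dsLaminB counts were below both mock counts. The share of all protein-coding genes with a TSS peak was 48.4% and 45.8% in mock, 33.5% and 42.7% after siAGO2, and 18.6% and 31.4% after dsLaminB. The members with a TSS peak therefore made up 72.4% and 71.3% of the list in mock, 39.1% and 63.2% after siAGO2 and 16.1% and 44.8% after dsLaminB, from well above that share to below it.

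**Figure D1:**
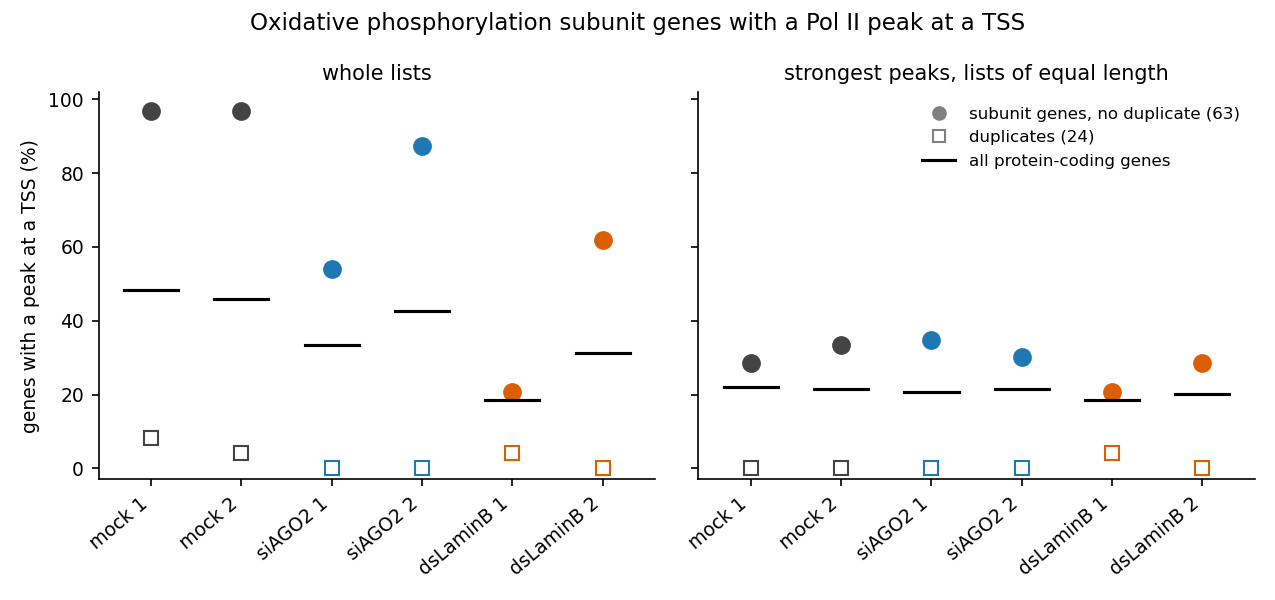
Share of genes with a Pol II peak within 250 bp of a TSS (y axis, percent) in each library (x axis). Filled circles are the 63 ordinary subunit genes, open squares the 24 duplicates and black lines all protein-coding genes; the left panel uses whole lists and the right panel the 2531 strongest peaks of each. With whole lists the circles fall from 61 of 63 genes in mock to 13 in dsLaminB replicate 1, and with lists of equal length they stay between 13 and 22 genes.

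The mean difference from mock was −18 genes for siAGO2 (pooled SD 10.5) and −36 for dsLaminB (pooled SD 12.5). These differences moved with the lengths of the lists. When the 2531 strongest peaks of each list were taken, the length of the shortest list, 18 and 21 of the 87 genes had a TSS peak in mock, 22 and 19 after siAGO2, and 14 and 18 after dsLaminB. The mean difference from mock was then 1 gene in siAGO2 and −3.5 after dsLaminB. With these lists the share of all protein-coding genes was 22.0% and 21.6% in mock, 20.7% and 21.4% after siAGO2, and 18.6% and 20.1% after dsLaminB, close to the members' own shares of 20.7% and 24.1%, 25.3% and 21.8%, and 16.1% and 20.7%. Over the 63 ordinary subunit genes alone the counts with these lists were 18 and 21, 22 and 19, and 13 and 18. The siAGO2 difference over whole lists rested mainly on replicate 1: it was −7.5 genes without that library and −28.5 without replicate 2. For dsLaminB it was −23.5 without replicate 1 and −48.5 without replicate 2.

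Peaks over gene bodies gave nearly the same counts, but the body here was the whole gene with its start. A peak that reached past the TSS into the gene counted as both, so the body counts are not separate evidence. A peak overlapped the body of 61 and 60 of the 87 genes in mock, 36 and 54 after siAGO2, and 15 and 39 after dsLaminB. Over all protein-coding genes the shares were 48.6% and 45.9%, 33.2% and 42.9%, and 19.0% and 31.5%. The genes are short, with a median length of 1178 bp for ordinary subunit genes, and the peaks covered a median of 35.0% and 36.1% of the body in mock, 19.5% and 34.2% after siAGO2, and 14.3% and 18.5% after dsLaminB, over those with a TSS peak in that library. TSS and body peaks were found in unequal numbers of libraries at 9 genes, long and short. ND-15 (41305 bp) had body peaks in all 6 libraries but TSS peaks in 3, and ND-39 (5003 bp) in 5 and 3. ND-B8 was the reverse, with TSS peaks in 4 libraries that lay upstream of the gene and body peaks in 0.

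TSS peaks were found in all 6 libraries at 13 of the 87 genes (18.2% of all protein-coding genes), and in none at 22 (50.5%). The 13 were ATPsynB, ATPsynC, ATPsynF, ATPsynG, ATPsynbeta and ATPsyngamma of complex V, COX6B, COX7C and COX8 of complex IV, SdhB and SdhC of complex II, UQCR-14 of complex III and ND-MWFE of complex I. They made up 13 of the 61 genes with a TSS peak in both mock libraries, or 21.3%, while 40.2% of all protein-coding genes with TSS peaks in both mock libraries had one in all 6. The 13 became 31 when dsLaminB replicate 1 was left out. With −log10 q of 5 or more it was 6, and with lists of equal length 8. The 22 without any TSS peak were 21 duplicates and ND-AGGG.

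The promoters of the 3 members ranked highest in mock among the 13 are shown to give the sequence under the strongest peaks of the set. In all 6 libraries the COX8 peak also covered the TSS of VhaM9.7-b, and the COX6B peak those of CG18809, CG33932 and Rpp20. These peaks cannot be assigned to the subunit gene alone. They run from 150 bases before the annotated start to 30 bases from it, 5′ to 3′, from the Release 6 genome (dm6), and capitals mark the motifs named below. ATPsynC (chr3R:31219601-31219780, minus strand) encodes the c subunit of the rotor ring of ATP synthase. COX8 (chr3L:21539418-21539597, minus strand) and COX6B (chrX:19744306-19744485, minus strand) encode accessory subunits of cytochrome c oxidase.
ATPsynC: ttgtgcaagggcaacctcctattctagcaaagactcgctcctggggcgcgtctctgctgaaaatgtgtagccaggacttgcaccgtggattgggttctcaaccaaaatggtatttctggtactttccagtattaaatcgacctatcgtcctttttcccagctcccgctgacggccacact
COX8: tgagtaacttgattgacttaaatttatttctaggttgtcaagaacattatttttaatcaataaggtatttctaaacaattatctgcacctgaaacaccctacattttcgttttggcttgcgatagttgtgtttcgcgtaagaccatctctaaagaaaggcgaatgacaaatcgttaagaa
COX6B: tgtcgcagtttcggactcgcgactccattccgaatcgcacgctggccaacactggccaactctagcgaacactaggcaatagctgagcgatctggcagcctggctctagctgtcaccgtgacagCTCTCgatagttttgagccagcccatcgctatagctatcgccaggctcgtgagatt
In these stretches COX6B held GAGAG on the opposite strand, and ATPsynC and COX8 held no match. In the longer window searched, described below, ATPsynC held Ohler motif 1 and TATAAA, and COX8 again held no match.

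By −log10 q, the ATPsynC peak was the strongest of the set in every library. Within-list rank is given here as a percentile by −log10 q, where a low value is a strong peak. The ATPsynC peak lay at percentiles 12.6 and 10.3 in mock, 12.1 and 9.48 after siAGO2, and 14.1 and 15.6 after dsLaminB. A percentile depends on the length of the list, and as counted ranks these were 752 and 579 (mock), 496 and 510 (siAGO2), and 357 and 642 (dsLaminB), so that dsLaminB overlapped mock by rank although its percentiles were higher. The peak was 1169 and 954 bp wide in mock, 485 and 921 bp after siAGO2, and 394 and 427 bp after dsLaminB, and thus narrower in all 4 knockdown libraries than in both mock libraries. Ranked by fold enrichment instead, ATPsynC led in replicate 2 of mock and of siAGO2 only, and lay at percentiles 24.9, 36.2, 25.8 and 33.8 in mock replicate 1, siAGO2 replicate 1 and the dsLaminB replicates. COX8 lay at percentiles 16.4 and 20.4 in mock, 29.0 and 25.8 after siAGO2, and 61.2 and 29.1 after dsLaminB. All 4 knockdown percentiles were higher than both mock percentiles, and the counted ranks, 980 and 1140 in mock and 1187, 1387, 1550 and 1199 in the knockdowns, were as well. COX6B lay at 22.5 and 20.2, 33.5 and 19.9, and 47.7 and 28.6, but as counted ranks at 1341 and 1130, 1368 and 1069, and 1207 and 1180, which overlapped. At the lower end of the 13 were ATPsynF, ATPsynG and UQCR-14, with mean percentiles in mock of 37.5, 40.9 and 47.4.

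As a set, the subunit genes stood in the middle of the lists rather than near their top in mock and siAGO2, and lower after dsLaminB. The median percentile over ordinary subunit genes with a TSS peak was 55.6 and 57.5 in mock, 56.1 and 57.0 after siAGO2, and 75.1 and 63.8 after dsLaminB. Over all protein-coding genes with a TSS peak it was 46.3 and 47.6, 50.5 and 47.0, and 49.7 and 48.4. In mock, 5 of 61 and 4 of 61 subunit genes had a peak in the strongest 25% of the list, where 25.2% and 24.4% of all protein-coding genes with a TSS peak had theirs. The corresponding counts were 2 of 34 and 5 of 55 after siAGO2, and 2 of 13 and 3 of 39 after dsLaminB, where 23.7% and 25.2%, and 25.0% and 24.9%, of all genes with a TSS peak had theirs. In the weakest 25% were 16.4% and 23.0% of the subunit genes with a TSS peak in mock, 32.4% and 27.3% after siAGO2, and 53.8% and 38.5% after dsLaminB. For all protein-coding genes these shares were 18.7% and 20.5%, 24.8% and 19.9%, and 24.1% and 21.2%.

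**Figure D2:**
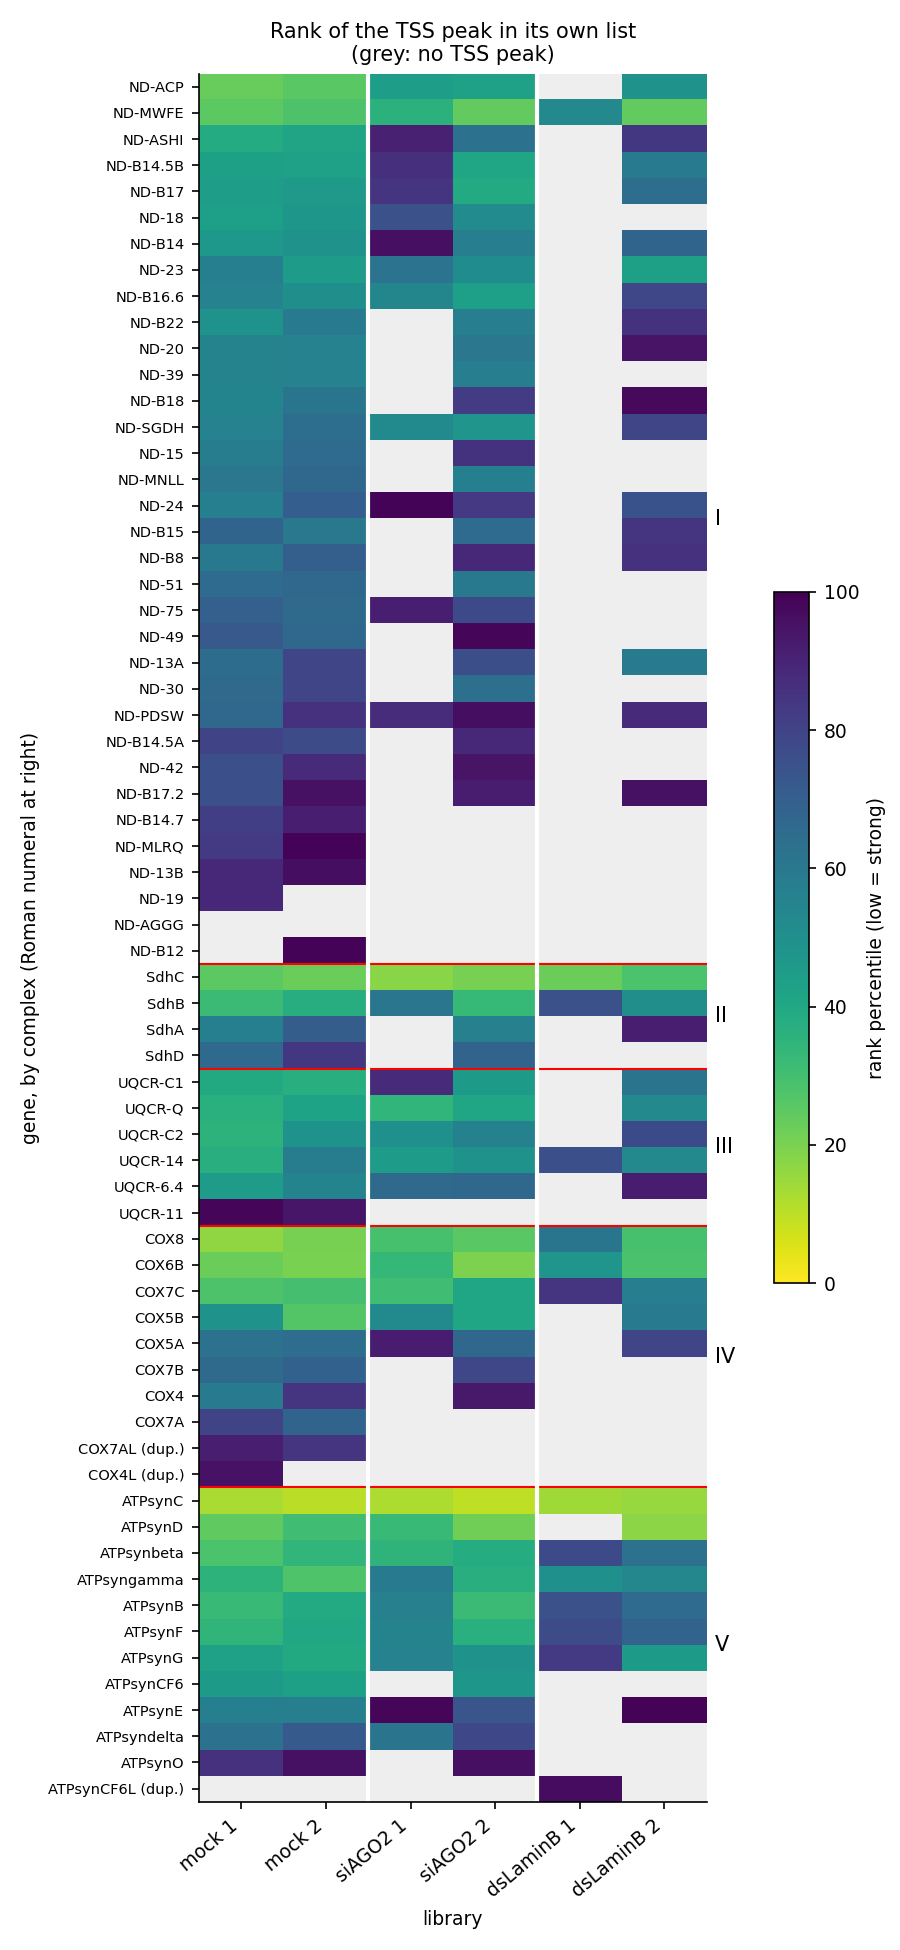
Within-list rank percentile of the TSS peak (colour, low is strong, grey is no TSS peak) of each ordinary subunit gene and of the 3 duplicates with a TSS peak (rows, by complex and mean mock rank) in each library (columns). ATPsynC is at percentiles 9.48 to 15.6 throughout, and complex I is empty in dsLaminB replicate 1 except for ND-MWFE.

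The complexes differed in how strong their peaks ranked in mock. The median percentile was 35.3 and 39.2 for the 11 ordinary genes of complex V and 38.2 and 52.0 for the 6 of complex III. It was 44.4 and 54.1 for the 4 of complex II, 53.5 and 46.8 for the 8 of complex IV, and 58.7 and 65.1 for the 32 of 34 genes of complex I that had a TSS peak. In both mock libraries complex V ranked strongest and complex I weakest of the 5. In siAGO2, TSS peaks were present at 13 and 28 of the 34 genes of complex I, 2 and 4 of 4 of complex II, 5 and 5 of 6 of complex III, 5 and 7 of 8 of complex IV, and 9 and 11 of 11 of complex V. In dsLaminB they were present at 1 and 18, 2 and 3, 1 and 5, 3 and 5, and 6 and 8. The subunits of a complex are few and differ in promoter neighbours, and no test between complexes was made.

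In complex I, the 3 named genes of the module that oxidises NADH differed in how many knockdown libraries had a TSS peak. ND-75, the largest subunit, had TSS peaks of 548 and 502 bp in mock and 147 and 1355 bp after siAGO2, and none in dsLaminB. The siAGO2 widths lay on both sides of mock. ND-51, which binds NADH and flavin, had peaks of 861 and 677 bp in mock, a peak of 841 bp in siAGO2 replicate 2 and none in the other 3 libraries. ND-24, its partner subunit, had peaks of 918 and 897 bp in mock, 504 and 934 bp after siAGO2 and, in replicate 2 of dsLaminB only, 813 bp. Its percentiles of 56.8 and 70.2 in mock were 99.0 and 83.4 after siAGO2, near the end of the list.

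The subunits of the ubiquinone-binding arm of complex I were similar. ND-49 (209 and 265 bp in mock) and ND-30 (1143 and 1190 bp) each had a TSS peak in replicate 2 of siAGO2, of 292 and 1649 bp, and in no other knockdown library. ND-20 had peaks of 364 and 276 bp in mock, one of 294 bp in siAGO2 replicate 2 and 236 bp in dsLaminB replicate 2. ND-23, which carries iron-sulfur clusters, had peaks of 1609 and 768 bp in mock, 809 and 1230 bp after siAGO2, and 757 bp in dsLaminB replicate 2. Only for ND-23 among these 4 were both siAGO2 libraries occupied, and its widths there lay between the mock values.

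Among accessory subunits of complex I, ND-ACP (mitochondrial acyl carrier protein) and ND-MWFE had the strongest peaks in mock. ND-MWFE lay at percentiles 25.1 and 27.7 in mock, 35.6 and 24.1 after siAGO2, and 52.9 and 24.2 after dsLaminB, and was the only gene of complex I with a TSS peak in dsLaminB replicate 1. The values of both knockdowns lay on both sides of mock. At the other end, ND-AGGG (3L, 24976254 to 24977118, plus strand) had no TSS peak in any library, and the nearest peak was 89375 bp away in mock replicate 1 and farther in the other 5. ND-B12 had a TSS peak in mock replicate 2 only (percentile 99.0) and ND-19 in mock replicate 1 only (percentile 88.4). These 3 were the only ordinary subunit genes that lacked a TSS peak in at least 1 mock library.

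Succinate dehydrogenase was occupied at all 4 genes in mock. SdhA, the flavoprotein that oxidises succinate, had TSS peaks of 1121 and 1075 bp in mock, of 987 bp in siAGO2 replicate 2 and 397 bp in dsLaminB replicate 2. SdhB, the iron-sulfur subunit, had peaks of 770 and 915 bp in mock, 305 and 4345 bp after siAGO2, and 162 and 228 bp after dsLaminB. The peak of 4345 bp in siAGO2 replicate 2 also covered the TSSs of CG15237, koi and ubl, so the siAGO2 widths of SdhB fell on both sides of mock. SdhC, a membrane anchor, had peaks of 2305 and 2327 bp in mock, 929 and 2212 bp after siAGO2, and 842 and 1990 bp after dsLaminB, which reached over the neighbouring gene Tctp. All 4 knockdown peaks were narrower than both mock peaks. SdhD, the other anchor, had peaks of 539 and 390 bp in mock, of 262 bp in siAGO2 replicate 2 and none in dsLaminB.

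In complex III, the core subunits UQCR-C1 and UQCR-C2 had TSS peaks in all libraries except dsLaminB replicate 1. UQCR-C1 peaks were 895 and 832 bp wide in mock, 279 and 879 bp after siAGO2, and 335 bp in dsLaminB replicate 2. UQCR-C2 peaks were 483 and 588 bp in mock, 261 and 2627 bp after siAGO2, and 281 bp in dsLaminB replicate 2. For both genes the siAGO2 replicates were farther apart than either was from mock on average, and the peak of 2627 bp at UQCR-C2 also covered the TSS of Rpn12.

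In complex IV, COX4, an early-assembling subunit, had TSS peaks of 706 and 1011 bp in mock, of 226 bp in siAGO2 replicate 2 and none in dsLaminB. COX5A had peaks of 1899 and 1280 bp in mock, 736 and 999 bp after siAGO2, and 761 bp in dsLaminB replicate 2. All 3 knockdown peaks of COX5A were narrower than both mock peaks, and all 5 COX5A peaks also covered the TSS of glo. COX5B, which binds zinc, had peaks of 468 and 359 bp in mock, 298 and 425 bp after siAGO2, and 299 bp in dsLaminB replicate 2, with siAGO2 overlapping mock.

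In complex V, ATPsynbeta (4, 1031484 to 1034917, plus strand), the catalytic subunit, had TSS peaks of 438 and 332 bp in mock, 305 and 299 bp after siAGO2, and 159 and 256 bp after dsLaminB. All 4 knockdown peaks were narrower than both mock peaks. ATPsyngamma, the shaft of the rotor, had peaks of 1131 and 984 bp in mock, 862 and 1338 bp after siAGO2, and 209 and 657 bp after dsLaminB, so that only dsLaminB lay apart from mock. ATPsynO, of the stalk that holds the catalytic head, had weak peaks of 481 and 443 bp in mock (percentiles 85.7 and 95.5), 463 bp in siAGO2 replicate 2 and none in dsLaminB.

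The peaks of subunit genes were often shared with a neighbour. Another protein-coding TSS lay within 500 bp at 41 of the 87 genes, against 30.8% of all protein-coding genes, and at 38 of the 63 ordinary subunit genes. In mock, 34 of 61 and 32 of 61 TSS peaks of ordinary subunit genes covered the TSS of another protein-coding gene (55.7% and 52.5%), as did 48.5% and 46.3% of the TSS peaks of all protein-coding genes. Such peaks had a median width of 1111 and 987.5 bp, and the others 483 and 443 bp. After knockdown 18 of 34 and 31 of 55 (siAGO2) and 6 of 13 and 20 of 39 (dsLaminB) were shared, beside 38.8% and 43.8%, and 26.2% and 35.5%, over all protein-coding genes. Of the 38 genes with a close neighbour, 38 and 37 had a TSS peak in mock, 23 and 36 after siAGO2, and 9 and 26 after dsLaminB. For all genes with a close neighbour the shares were 77.1% and 73.2%, 52.9% and 68.0%, and 25.4% and 48.2%, and in dsLaminB replicate 1 the subunit genes were slightly lower, at 23.7%. Of the 25 without, 23 and 24 had a TSS peak in mock, 11 and 19 after siAGO2, and 4 and 13 after dsLaminB, beside 35.5% and 33.6%, 24.8% and 31.5%, and 15.6% and 23.9% of all genes without one. A peak shared in this way cannot be assigned to either gene.

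**Figure D3:**
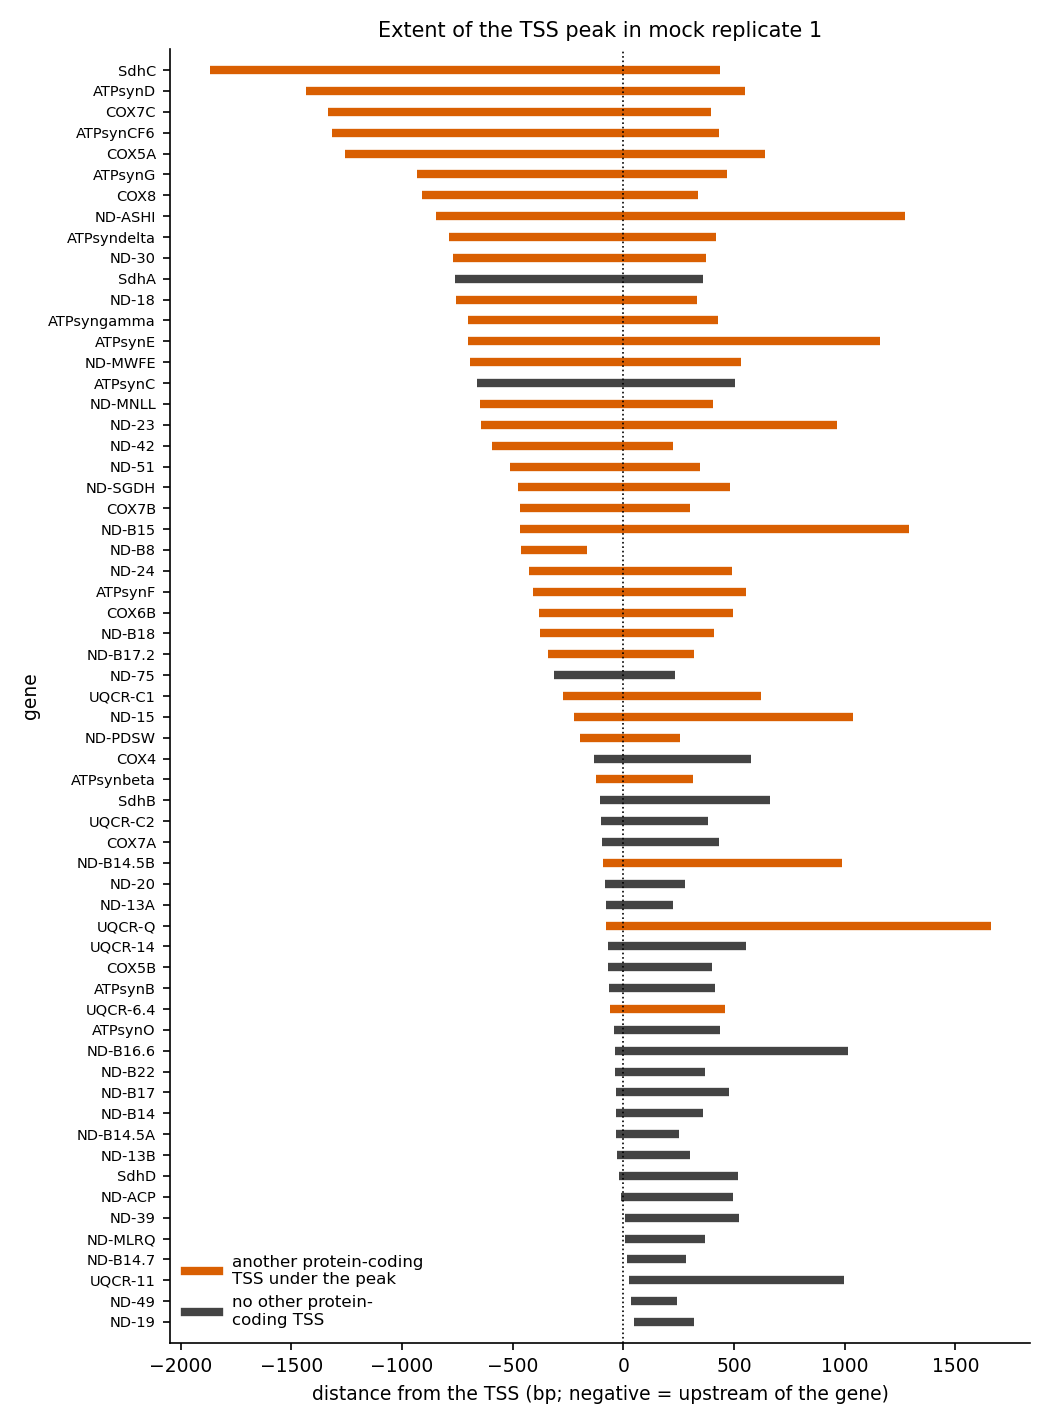
Extent of the TSS peak of each of 61 ordinary subunit genes in mock replicate 1 (x axis, bp from the TSS nearest to the middle of the peak, negative upstream of the gene; rows are genes). Orange bars also cover the TSS of another protein-coding gene; the median extent was 270 bp upstream and 434 bp downstream, and the SdhC peak reached 1869 bp upstream.

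Some neighbours belong to known pathways. ND-ASHI and Fum1 (fumarase of the citric acid cycle) were under the same peak of 2120 and 2060 bp in mock and of 1880 bp in siAGO2 replicate 2. In siAGO2 replicate 1 and dsLaminB replicate 2 the ND-ASHI peak, of 638 and 613 bp, still covered a Fum1 TSS, but the most significant TSS peak of Fum1 was another, of 293 and 282 bp. In dsLaminB replicate 1 Fum1 had a TSS peak of 235 bp and ND-ASHI had none. ND-PDSW and msl-2, a gene of male dosage compensation that is used here as a marker, were under the same peak in each of 5 libraries (456 and 456 bp in mock, 169 and 398 bp after siAGO2, and 177 bp in dsLaminB replicate 2). A peak at msl-2 in these female cells therefore cannot be told apart from a peak at ND-PDSW. The promoter of ND-PDSW (chr2L:3466007-3466186, plus strand) is shown for this reason, with Ohler motif 1 (opposite strand) in capitals.
ND-PDSW: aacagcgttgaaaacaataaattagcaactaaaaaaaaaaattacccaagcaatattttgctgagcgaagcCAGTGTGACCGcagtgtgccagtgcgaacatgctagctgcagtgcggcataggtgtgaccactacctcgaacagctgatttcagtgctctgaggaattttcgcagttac

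Motifs were searched on both strands in the 250 bases before to 50 bases after the 5′ end of 13945 protein-coding genes, including all 87 members. Ohler motif 1, a core promoter element of broadly expressed fly genes, was found in 13 of 63 ordinary subunit genes (20.6%), in 0 of 24 duplicates and in 4.50% of all promoters. Among all genes with a TSS peak in both mock libraries it was found in 8.80%. The DRE (TATCGATA), bound by the factor DREF, was found in 9 of 63 ordinary subunit genes (14.3%), 0 of 24 duplicates, 9.36% of all promoters and 16.5% of those with a TSS peak in both mock libraries. TATAAA was found in 61.9%, 37.5%, 45.8% and 44.1%, respectively. GAGAG was found in 15.9%, 41.7%, 29.7% and 29.2%, and the E-box (CACGTG) in 3.17%, 8.33%, 4.20% and 5.02%. The NRG element, which is known from genes of mitochondrial function, was found in 0 members and in 22 of the 13945 promoters. No motif contains another, and a match is only a match of letters.

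The duplicates were nearly all without a called peak while their parents had one. The 24 duplicates have 21 parent genes, and in 23 of the 24 pairs the parent had a TSS peak in more libraries than the duplicate. COX7AL and COX7A were the exception, with TSS peaks in 2 libraries each. COX5BL lies 1631 bp from COX5B on 2L, from 5′ end to 5′ end. It had no TSS peak in any library, whereas COX5B had one in 5. COX7CL lies 1995 bp from COX7C by the same measure and had none, whereas COX7C had one in all 6. The promoters of COX5B (chr2L:6557650-6557829, plus strand) and COX5BL (chr2L:6559281-6559460, plus strand) are shown as a pair of neighbouring genes with and without a peak.
COX5B: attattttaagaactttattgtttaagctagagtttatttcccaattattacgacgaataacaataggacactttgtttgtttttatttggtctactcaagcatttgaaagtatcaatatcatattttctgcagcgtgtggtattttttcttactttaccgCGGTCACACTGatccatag
COX5BL: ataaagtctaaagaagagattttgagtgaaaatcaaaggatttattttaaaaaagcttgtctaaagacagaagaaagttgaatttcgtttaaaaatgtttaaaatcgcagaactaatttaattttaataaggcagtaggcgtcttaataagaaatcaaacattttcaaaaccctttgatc
Capitals in COX5B mark Ohler motif 1 on the given strand, which begins after the annotated start, and the stretch shown for COX5BL held no match. In the longer window searched, COX5BL held GAGAG and COX5B held only Ohler motif 1.

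The 3 duplicates with a TSS peak had weak peaks. COX7AL had peaks of 327 and 212 bp in mock, at percentiles 91.6 and 84.6, which lay upstream and covered none of the gene body. Its parent COX7A is 2626 bp away, from 5′ end to 5′ end. COX4L had a peak of 515 bp in mock replicate 1 alone, at percentile 95.1. ATPsynCF6L had a peak of 662 bp in dsLaminB replicate 1 alone, at percentile 96.7, while its parent ATPsynCF6 had peaks of 1752 and 1935 bp in mock, of 2068 bp in siAGO2 replicate 2 and none in the others. None of these was found in both libraries of a knockdown.

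Replicate libraries of the knockdowns differed more than those of mock, and almost always in the same direction. Over the 61 genes with TSS peaks in both mock libraries, the median fold between the replicates' widths was 1.14. It was 1.71 over 34 genes in siAGO2 and 1.61 over 13 genes in dsLaminB. Replicate 2 had the wider peak at 33 of the 34 genes and 12 of the 13. A TSS peak was present in siAGO2 replicate 2 but not in replicate 1 at 21 genes, and in dsLaminB replicate 2 but not in replicate 1 at 26. Over all protein-coding genes the shift ran the same way, with median folds of 1.35 and 1.29, the wider peak in replicate 2 at 3948 of 4587 and 2276 of 2561 genes, and a TSS peak in replicate 2 alone at 1380 and 1822. The siAGO2 replicate 1 list and the dsLaminB replicate 1 list were the shorter of their groups.

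In siAGO2, 6 of the 61 genes with TSS peaks in both mock libraries had none in either knockdown library, a share of 9.84% beside 7.17% of all protein-coding genes. They were ND-13B, ND-B14.7 and ND-MLRQ of complex I, UQCR-11 of complex III, and COX7A and the duplicate COX7AL of complex IV. Their median of mean mock percentiles was 89.6, and that of the other 55 was 52.8. Without siAGO2 replicate 2 the count of lost genes was 27, and with lists of equal length it was 1. ND-13B had peaks of 331 and 287 bp in mock, ND-B14.7 of 266 and 449 bp, and ND-MLRQ of 359 and 147 bp. UQCR-11 had peaks of 974 and 382 bp and COX7A of 532 and 466 bp. None of the 6 is among the core subunits described above. No member was gained (0 of 23 without a TSS peak in mock, and 0.0421% of all protein-coding genes).

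Of the 34 genes with TSS peaks in all 4 libraries, 20 were narrower in both siAGO2 libraries than in both mock libraries and 0 were wider, against 53.8% and 0.350% of all protein-coding genes. The 20 included 7 of complex I, 7 of complex V, 3 of complex III, 2 of complex IV and SdhC of complex II. The 3 largest were UQCR-Q, ATPsynG and ATPsyndelta. UQCR-Q, an accessory subunit of complex III, had peaks of 1737 and 1743 bp in mock and 314 and 611 bp after siAGO2, a difference of −1277.5 bp (pooled SD 149, exact permutation p = 0.333). ATPsynG, of the membrane part of ATP synthase, had peaks of 1401 and 2420 bp in mock and 867 and 1012 bp after siAGO2, a difference of −971 bp (pooled SD 515, exact permutation p = 0.333). ATPsyndelta, of the central stalk, had peaks of 1208 and 1366 bp in mock and 244 and 389 bp after siAGO2, a difference of −970.5 bp (pooled SD 107, exact permutation p = 0.333). In these 3 genes the siAGO2 and mock widths did not overlap. The ATPsynG difference was −461.5 bp without mock replicate 2. Both mock peaks of UQCR-Q also covered the TSS of CG34250, both of ATPsyndelta that of Ypel, and the peak of ATPsynG in mock replicate 2 that of abo, and no siAGO2 peak at these genes covered them. In mock and siAGO2 alike, every UQCR-Q peak covered the TSS of CG46525 and every ATPsynG peak that of SCAR. The UQCR-Q and ATPsynG peaks therefore cannot be assigned to the subunit gene alone. With 2 libraries against 2, the two-sided exact test cannot give a p below 0.333, so that it could call no difference. The count of 20 of 34 was 32 of 55 without siAGO2 replicate 1 and 32 of 34 without siAGO2 replicate 2. It was 9 with lists of equal length and 6 over genes without another TSS within 500 bp.

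The rank percentiles in siAGO2 were weaker than both mock percentiles at 17 of the 34 genes (41.7% of all protein-coding genes) and stronger at 2 (4.87%). The 2 were SdhC, at percentiles 25.2 and 22.4 in mock and 17.9 and 20.6 after siAGO2, and ND-SGDH, an accessory subunit of complex I, at 55.8 and 64.0 in mock and 52.6 and 47.7 after siAGO2. Both siAGO2 lists were shorter than both mock lists, which raises a percentile at the same counted rank. By counted rank, ATPsynE, COX8, ND-18, ND-24, ND-ACP, ND-ASHI, ND-B14 and UQCR-C1 were weaker as well, and the others of the 17 overlapped mock. SdhC and ND-SGDH were also stronger by counted rank, and so were ATPsynC, ATPsynD, ND-B16.6 and ND-MWFE. Over the 13 genes with TSS peaks in all 6 libraries, the median percentile was 28.4 and 29.5 in mock and 35.6 and 33.1 after siAGO2, a mean difference of 5.36 points (pooled SD 1.38). With lists of equal length the difference was −4.91 points, over the 8 genes that then had a TSS peak in all 6 libraries. Over all protein-coding genes with a TSS peak in all 6 whole lists, the median percentile was 20.4 and 21.9 in mock and 29.7 and 22.6 after siAGO2. Median widths over the 13 were 1131 and 954 bp (mock) and 558 and 1012 bp after siAGO2, a difference of −257.5 bp (pooled SD 244). It was −30.5 bp without siAGO2 replicate 1 and −484.5 bp without replicate 2. With lists of equal length it was −88.25 bp, over 8 genes, and with −log10 q of 5 or more −66 bp, over 6 genes.

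**Figure D4:**
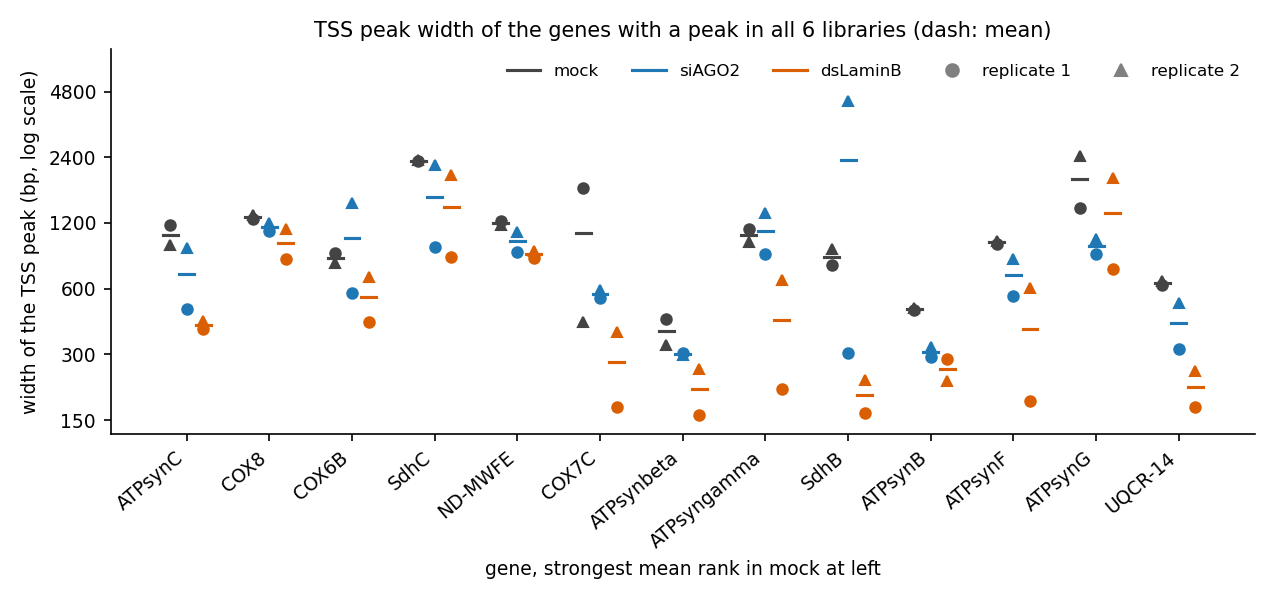
Width of the TSS peak (y axis, bp, log scale) at the 13 genes with a TSS peak in all 6 libraries (x axis, by mean mock rank). Circles are replicate 1, triangles replicate 2 and dashes group means; both dsLaminB points lie below both mock points at 12 of the 13 genes, the exception being ATPsynG, and the highest point is the 4345 bp peak of SdhB in siAGO2 replicate 2.

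In dsLaminB, 22 of the 61 genes lost the TSS peak in both libraries, a share of 36.1% beside 30.5% of all protein-coding genes with TSS peaks in both mock libraries. They included 13 genes of complex I, among them the core subunits ND-75, ND-51, ND-49 and ND-30. The others were SdhD, UQCR-11, 4 genes of complex IV (COX4, COX7A, COX7AL and COX7B) and 3 of complex V (ATPsynO, ATPsyndelta and ATPsynCF6). The remaining genes of complex I were ND-13B, ND-15, ND-18, ND-39, ND-42, ND-B14.5A, ND-B14.7, ND-MLRQ and ND-MNLL. The median of mean mock percentiles was 72.0 over the 22 lost genes and 43.1 over the other 39. Over all protein-coding genes these medians were 73.8 and 34.1. The 22 became 48 when dsLaminB replicate 2 was left out, and with lists of equal length it was 1. No member was gained (0 of 23, and 0% of all protein-coding genes).

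The 13 genes with TSS peaks in all 4 libraries of this comparison were those with a TSS peak in all 6. At 12 of them the peak was narrower in both dsLaminB libraries than in both mock libraries and at 0 it was wider, against 92.0% and 0.156% of all protein-coding genes. The exception was ATPsynG, with 1401 and 2420 bp in mock and 740 and 1930 bp after dsLaminB. The 3 largest differences were at SdhC, COX7C and ATPsynC. SdhC (2305 and 2327 bp in mock, 842 and 1990 bp after dsLaminB) differed by −900 bp (pooled SD 574, exact permutation p = 0.333). Without dsLaminB replicate 1 it was −326 bp, and without replicate 2 it was −1474 bp. COX7C, an accessory subunit of complex IV, had peaks of 1732 and 422 bp in mock and 172 and 382 bp after dsLaminB, a difference of −800 bp (pooled SD 663, exact permutation p = 0.333). ATPsynC differed by −651 bp (pooled SD 109, exact permutation p = 0.333). The COX7C difference was −145 bp without mock replicate 1. The mock replicates of COX7C were farther apart than mock replicate 2 was from dsLaminB. The COX7C peak of dsLaminB replicate 2 (10049446 to 10049827) lay at another annotated TSS of the gene. It did not overlap the peaks of mock replicate 2 (10048302 to 10048723) and dsLaminB replicate 1 (10048521 to 10048692). The peak of mock replicate 1 (10048146 to 10049877) spanned both sites. The COX7C widths, counted among the 12, therefore do not describe a single peak. The count of 12 of 13 became 38 of 39 when dsLaminB replicate 1 was left out. It was 6 with −log10 q of 5 or more, 8 with lists of equal length and 4 over genes without another TSS within 500 bp.

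The rank percentiles in dsLaminB were weaker than both mock percentiles at 10 of the 13 genes (69.7% of all protein-coding genes) and stronger at 0 (4.96%). At the same counted rank a percentile is higher in a shorter list, and the dsLaminB lists were shorter. By counted rank, COX7C, COX8 and ATPsynbeta were weaker as well, and the others of the 10 overlapped mock, except ATPsynG. ATPsynG was stronger by counted rank, at 2546 and 2194 in mock and 2098 and 1876 after dsLaminB. The median percentile over the 13 was 75.1 and 50.8 after dsLaminB, a mean difference from mock of 34.0 points (pooled SD 12.2). Without dsLaminB replicate 1 it was 19.9 points, over the 31 genes with a TSS peak in all the libraries left. With lists of equal length it was −8.23 points, over the 8 genes with a TSS peak in all 6. For all protein-coding genes with a TSS peak in all 6 whole lists, the median percentile was 20.4 and 21.9 in mock and 48.7 and 29.8 after dsLaminB. The median width over the 13 was 286 and 604 bp after dsLaminB, a difference of −597.5 bp (pooled SD 182). The difference remained negative with lists of equal length (−546.5 bp, over those 8 genes). Over all protein-coding genes with a TSS peak in all 6 libraries, median widths were 843 and 731 bp (mock), 475 and 709 bp after siAGO2, and 314 and 437 bp after dsLaminB.

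The knockdowns share the mock libraries, so their counts of lost genes are not independent. The 6 genes without a TSS peak in siAGO2 had none in dsLaminB either, while 6.79% of all protein-coding genes with TSS peaks in both mock libraries had none in the 4 knockdown libraries. At ATPsynB, a subunit of the outer stalk, the peak was 481 and 488 bp wide in mock, 291 and 326 bp after siAGO2, and 286 and 227 bp after dsLaminB. Here the replicates of each group lay close together and no knockdown value came near the mock values.

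Genes of the same pathway outside the name rule were described from a chosen list. The subunit and carrier genes blw (ATP synthase alpha), levy, cype, RFeSP, Cyt-c1, ox, sun, Cyt-c-p and Cyt-c-d had TSS peaks at 9 and 9 of 9 in mock, 8 and 8 after siAGO2, and 5 and 8 after dsLaminB. cype, of complex IV, had peaks of 354 and 336 bp in mock and none in the 4 knockdown libraries. Cyt-c-d, the cytochrome c gene known for its role in the testis, differed from the duplicates in having a TSS peak in all 6 libraries, of 446 and 357 bp in mock, 308 and 343 bp after siAGO2, and 228 and 283 bp after dsLaminB. All 4 knockdown values were below both mock values. Assembly factors of complexes I and IV had TSS peaks at 4 and 3 of 6 in mock, 1 and 2 after siAGO2, and 1 and 1 after dsLaminB, and Surf1 had none in any library. Scox had peaks of 645 and 495 bp in mock and none in the knockdown libraries.

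Citric acid cycle genes were occupied in most libraries, at 9 and 10 of 10 in mock, 9 and 10 after siAGO2, and 5 and 9 after dsLaminB. The citrate synthase gene kdn ranked above every subunit gene, at percentiles 3.99 and 6.50 in mock, 8.17 and 4.03 after siAGO2, and 14.9 and 6.55 after dsLaminB, except that ATPsynC lay at 14.1 in dsLaminB replicate 1. Regulators of mitochondrial gene expression had TSS peaks at 6 and 5 of 6 in mock, 3 and 5 after siAGO2, and 2 and 3 after dsLaminB. Among them srl, the fly PGC-1 gene, had one in all 6 libraries, and TFAM, which packages mitochondrial DNA, had peaks of 515 and 691 bp in mock, of 782 bp in siAGO2 replicate 2 and none in the other 3. No gene of these lists gained a TSS peak in both libraries of a knockdown.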

How the data were processed

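Peak lists of 6 immunoprecipitated libraries were used, and the 6 inputs entered only through the authors' peak calling. The authors trimmed reads with cutadapt (1.10), aligned them to dm6 with Bowtie2, removed multimapping reads and duplicates with Picard (2.11.0) and called broad peaks with MACS2 (2.1.1.20160309) per library against the paired input (versions from the submitters' processing notes). The deposited lists give a score (not used), a fold enrichment ratio over background, −log10 p and −log10 q. The authors' −log10 q ranked or filtered peaks, and the deposited fold enrichment ratio ranked them in an alternative. Depth is unknown, so no value was scaled.

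Genes and TSSs came from Ensembl release 115 (BDGP6, the assembly of dm6), and promoter sequences from the RefSeq Release 6 genome. A TSS peak was the peak of highest −log10 q within 250 bp of an annotated TSS. A body peak overlapped the gene, its start included, by at least 1 bp. Rank percentile was 100 times rank over list length. Lost genes had TSS peaks in both mock and neither knockdown library, gained genes the reverse. Narrower or wider (by width) and weaker or stronger (by rank percentile) meant that both knockdown values lay beyond both mock values. These calls were made over genes with TSS peaks in all 4 libraries. For single genes, widths were compared by exact permutation of the labels of the libraries (two-sided). The assignment of peaks and widths to TSSs was checked on simulated peaks, and the permutation only on a small example. Counts over all protein-coding genes are given as background, and no test over the set was made.

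Members and lists were chosen with earlier results of these data known. Named were the core subunits, duplicates with a TSS peak, lost genes, ordinary subunit genes without TSS peaks in both mock libraries, the 3 highest and 3 lowest in mock rank among genes with TSS peaks in all 6 libraries, and the 3 largest narrowings per knockdown. Genes such as ND-PDSW, ND-ASHI, ND-SGDH, ATPsynB, ND-15, ND-39 and ND-B8 were named after their values were seen. Parents of COX6CL (cype), ATPsynepsilonL (sun), COX6AL and COX6AL2 (levy) were assigned by hand, the first pair after the annotation was read. Alternatives were a −log10 q of at least 5, lists of 2531 peaks, windows of 100 and 500 bp, the 5′ end only, genes without another TSS within 500 bp, rank by fold enrichment, leaving out each library, and pairing by replicate number. Python 3.11.15, pandas 2.3.3, numpy 2.4.6 and scipy 1.17.1 were used.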

Additional observations from a re-analysis of the deposited data

How the results depend on the processing

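Counts and ranks depended mainly on the lengths of the lists and on single libraries. With the 2531 strongest peaks of each list, the difference from mock in members with a TSS peak was 1 in siAGO2 and −3.5 in dsLaminB, the rank differences were −4.91 and −8.23 points, 1 and 1 members were lost, 9 were narrower in siAGO2, and 8 had a TSS peak in all 6 libraries. With −log10 q of at least 5, the siAGO2 rank difference was 10.3 points, 11 members were lost in siAGO2, 6 were narrower in dsLaminB and 6 had a TSS peak in all 6 libraries. With a window of 500 bp the siAGO2 rank difference was 9.26 points. Over members without another TSS within 500 bp, the dsLaminB difference in members was −15, 10 were lost in dsLaminB, 6 and 4 were narrower in siAGO2 and dsLaminB, and 4 had a TSS peak in all 6 libraries. The cause of these changes was not tested, except that this last setting keeps fewer genes. Here and below, rank and width differences cover the members with a TSS peak in all libraries under each setting, so the genes differ between settings.

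Leaving out 1 library at a time, lost members ranged from 6 to 27 in siAGO2 and from 22 to 48 in dsLaminB, narrower members from 20 to 32 and from 12 to 38, and members with a TSS peak in all 6 libraries from 13 to 31. The members compared for width were 55 in siAGO2 and 39 in dsLaminB without replicate 1 of the knockdown, and 34 and 13 without its replicate 2. No share over all protein-coding genes is given for these settings. The rank difference ranged from 4.11 to 9.44 points in siAGO2 and from 19.9 to 46.2 in dsLaminB. The difference in members ranged from −28.5 to −7.5 and from −48.5 to −23.5, and that in width from −484.5 to −30.5 bp and from −756.5 to −509 bp, without a change of direction. With a replicate block the mean differences were equal by construction, 20 and 13 members were narrower, and the smallest p was 0.500. The labels do not say whether same-numbered libraries were prepared together. The deviations of same-numbered libraries had r = 0.26 over 34 members in siAGO2 and −0.06 over 13 in dsLaminB. As the members share libraries, these values are a description and cannot decide this. Windows of 100 bp, the 5′ end only and rank by fold enrichment changed no direction and moved no count by over 1.5 times. Read depth is unknown, and a weak peak that is absent from a shorter list was not detectable there, which does not show that Pol II was absent.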
